A study of Mus musculus with 8 samples.

Results

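The genes described here encode the receptor chains through which cytokines of the interleukin-6 (IL-6), IL-22, IL-17 and IL-1 families reach a cell. They are 10 of the 55414 genes in the deposited count table: Osmr, Il6st, Lifr, Il6ra, Il11ra1, Il22ra1, Il10rb, Il17ra, Il17rc and Il1r1. They were matched by gene symbol to the Ensembl identifiers of the table. Osmr was selected on its large rise in these same libraries, so its values are given as a description with no test, and the other 9 genes were taken as receptors of related cytokines. Of the 10 genes, 9 passed the filter on low counts and Il1r1 did not.

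The libraries came from Paneth cells, the secretory cells of the crypt base that release antimicrobial peptides. The cells were purified on a cell sorter from the small intestine of wild-type (WT) mice, of the C57BL/6J strain by the study's methods, 3 hours after an injection. There were 4 libraries from mice given phosphate-buffered saline (PBS, the control) and 4 from mice given tumor necrosis factor (TNF, an inflammatory cytokine), with no other allele or agent named. The study describes its sorted samples, of which these are part, as coming from single mice, and each library was taken as 1 replicate. The age of the mice and the dose of TNF were not given in the sources used. TNF was given to the whole animal, so that its direct effect on Paneth cells and the effect of other signals in the animal cannot be told apart.

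Receptors of the IL-6 family pair a private chain with gp130, the shared signal chain encoded by Il6st. Osmr, the oncostatin M receptor, and Lifr, the leukemia inhibitory factor receptor, are private chains that signal themselves, whereas Il6ra and Il11ra1 bind their ligand and leave the signal to gp130. The kinases held by gp130 phosphorylate STAT3, and the inhibitor SOCS3 then binds gp130 and shuts the signal off. IL-22 acts through Il22ra1 and Il10rb, also by way of STAT3, and in the intestinal epithelium it is known for inducing antimicrobial lectins. IL-17A acts through Il17ra and Il17rc and the adaptor Act1, encoded by Traf3ip2. IL-1 acts through Il1r1 and its accessory chain Il1rap by way of MyD88.

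The libraries held 23824717 to 32576077 counts. TNF replicate 4 stood apart, with a scaling factor of 0.448 against 0.995 to 1.36 in the other 7 and the smallest number of genes with a count (16712). Values without it are given beside the receptor results that it moved most and after the pathway lists. The 7 Paneth cell markers summed to 311000 to 459000 normalized CPM (counts scaled by the adjusted library size) in PBS and 388000 to 1210000 in TNF, the highest value being that of TNF replicate 4 (388000 to 453000 in the other 3), and Pla2g2a was the only one of the 7 called (higher). Of 20 markers of immune, stromal and endothelial cells, 7 were at 0 in every library, and 16 stayed under 20 counts in every library. The summed level of the 9 immune markers was 9.46 to 16 normalized CPM in PBS and 18.2 to 80.5 in TNF (18.2 to 25.4 without TNF replicate 4), with Cd3e, Cd79a and Adgre1 at 0 and Cd14 and Cd52 called higher. The largest part of this sum in every library was Lyz2, at 6.24 to 11.7 in PBS and 9.44 to 64.3 in TNF, which was not called. Ptprc had 10, 3, 10 and 5 counts in PBS and 1, 0, 1 and 9 in TNF. Itgam and Cd68 were low in both groups, and these last 3 genes were under the filter. The 7 stromal markers summed to 0.149 to 0.407 in PBS and 0.945 to 1.63 in TNF, with Col1a2, Col3a1 and Thy1 at 0 and Vim called higher. The 4 endothelial markers summed to 0 to 0.0744 in PBS and 0.0351 to 0.415 in TNF, with Emcn at 0. Of the 5 stem cell markers, 4 were called lower (Lgr5, Ascl2, Smoc2 and Axin2), with sums of 1450 to 2350 in PBS and 1310 to 1860 in TNF. The 6 goblet cell markers summed to 3650 to 5900 in PBS and 6370 to 7570 in TNF, but they moved both ways, with Muc2 and Spdef called higher (log2 fold changes 1.27 and 0.41) and Clca1 and Fcgbp lower (-2.55 and -1.53). The 4 enteroendocrine markers summed to 9.74 to 12.8 in PBS and 29.7 to 60.1 in TNF, and the 3 tested were all called higher (Chga, Chgb and Gcg, log2 fold changes 1.95, 1.95 and 1.13). The 6 enterocyte markers summed to 27.6 to 40.1 in PBS and 15.2 to 59.8 in TNF, with Apoa4 called lower (log2 fold change -3.94), and the TNF libraries other than replicate 4 lay at 15.2 to 19.5, below every PBS library. The 3 tuft cell markers summed to 11.9 to 27.3 in PBS and 7.58 to 52.9 in TNF (7.58 to 14.7 without TNF replicate 4), with none called. The part of these other cells in the receptor results was not tested. As these are bulk libraries, fewer cells of a type and less RNA per cell cannot be told apart.

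The promoters of the 3 receptor genes that moved most are shown, since their transcripts differed between the groups. The sequences are the 250 bases before the start of transcription, 5′ to 3′ on the gene's strand, from RefSeq on the GRCm38.p6 build, with CG dinucleotides in capitals. The window lies on the minus strand at chr15:6874314-6874563 for Osmr, on the plus strand at chr13:112463820-112464069 for Il6st and on the minus strand at chr3:89913197-89913446 for Il6ra.
Osmr: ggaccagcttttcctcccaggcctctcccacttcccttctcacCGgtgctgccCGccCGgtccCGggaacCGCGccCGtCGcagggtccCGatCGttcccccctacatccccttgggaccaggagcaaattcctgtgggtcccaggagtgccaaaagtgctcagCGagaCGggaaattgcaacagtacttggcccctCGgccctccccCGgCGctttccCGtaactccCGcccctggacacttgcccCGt
Il6st: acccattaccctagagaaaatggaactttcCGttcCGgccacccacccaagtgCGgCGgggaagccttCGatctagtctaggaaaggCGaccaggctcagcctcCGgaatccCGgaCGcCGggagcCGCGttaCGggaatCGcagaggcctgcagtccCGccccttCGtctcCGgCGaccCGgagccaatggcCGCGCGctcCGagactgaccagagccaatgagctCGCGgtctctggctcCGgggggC
Il6ra: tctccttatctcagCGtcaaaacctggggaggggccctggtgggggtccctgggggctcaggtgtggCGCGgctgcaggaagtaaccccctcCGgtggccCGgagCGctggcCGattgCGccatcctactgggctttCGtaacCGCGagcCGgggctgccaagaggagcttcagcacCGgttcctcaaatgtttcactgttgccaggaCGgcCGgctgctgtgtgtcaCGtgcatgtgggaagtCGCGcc

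All 3 promoters were rich in CG dinucleotides. Over the window from 250 bases before to 50 after the start, Osmr held 22 CG dinucleotides (more than 76.9% of 32851 promoters of the same length), Il6st 33 (more than 91.4%) and Il6ra 25 (more than 81.6%), against a median of 7. This was not particular to them, as a window of Lifr, which was not called, held 53 (more than 99.5%) and its second window 4. The GC contents of the 3 windows shown were 66.0%, 68.3% and 66.0%, against a median of 52.7%. Of the 10 receptor genes, 8 had an entry, with 11 windows in all, and Il10rb and Il17ra had none. On both strands the windows were searched for the NF-kB consensus, the STAT motif TTCNNNGAA and the interferon-stimulated response element (TTTC, any 2 bases, TTTC), which 4.51%, 8.3% and 3.44% of all promoters held. The single match was an NF-kB consensus in 1 of the Il1r1 windows, and the other windows, with those of Osmr, Il6st and Il6ra, held none of these letters.

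Osmr (ENSMUSG00000022146, GRCm39 chr15:6843053-6904450, minus strand) was nearly silent in PBS and readily detected in TNF. The 4 PBS libraries held 4, 1, 0 and 2 Osmr counts, and the 4 TNF libraries held 368, 647, 484 and 191. In normalized CPM this was 0.107, 0.0372, 0 and 0.0452 in PBS and 13.1, 22.4, 17 and 16.4 in TNF. TNF replicate 4, the library that stood apart, was within the range of the other 3 TNF libraries. The mean went from 0.0474 ± 0.0445 normalized CPM (SD, n = 4) to 17.2 ± 3.86 (SD, n = 4). Summed counts divided by the summed adjusted library sizes gave a ratio of 332, with a 95% exact interval of 161 to 828 that covers counting error only. The fitted log2 fold change was 8.26 (SE 0.36), the 11th highest of the 13368 genes tested. With 7 counts in PBS its size depends on single reads, and it was 8.90 without PBS replicate 1 and 7.87 with library size as the only scaling. Osmr overlaps Gm41261, a long noncoding RNA gene on the opposite strand that has no row in the count table, and no source used here says whether counting used strand.

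Across all 13368 genes tested, 5747 (43.0%) were called at an adjusted p under 0.05 by edgeR's quasi-likelihood test, 3122 (23.4%) of them higher in TNF and 2625 (19.6%) lower. Of the 8 tested receptor genes other than Osmr, 2 were called (25%), 1 of them higher and 1 lower. The PBS and TNF libraries did not overlap for 3 of the 9 receptors other than Osmr (Il6st, Il6ra and Lifr), and they did not overlap for 42.1% of all genes tested. Neither share of the receptors was above that of all genes.

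Il6st (ENSMUSG00000021756, chr13:112600604-112646620, plus strand), the gp130 chain, rose in TNF. Its level was 28.9, 22.9, 28.7 and 32.8 normalized CPM in PBS and 165, 173, 200 and 128 in TNF. Every TNF library was above every PBS library, and TNF replicate 4 was the lowest of its group. The mean rose from 28.3 ± 4.09 to 166 ± 29.6 normalized CPM (SD, n = 4 each), a fitted fold of 5.87 and a log2 fold change of 2.55 (standard error 0.17, adjusted p = 1.41e-06 by edgeR). The change ranked 265th from the top of all genes tested.

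Il6ra (ENSMUSG00000027947, chr3:89771366-89820719, minus strand), the private chain for IL-6, fell in TNF. It stood at 7.64, 6.69, 7.41 and 15.0 normalized CPM in PBS and at 1.56, 2.01, 2.98 and 1.37 in TNF. All PBS libraries were above all TNF libraries, and PBS replicate 4 lay far above the other 3. The mean was 9.20 ± 3.92 in PBS and 1.98 ± 0.718 in TNF (SD, n = 4 each), 4.54-fold lower in TNF by the fit, with a log2 fold change of -2.18 (standard error 0.32, adjusted p = 0.000292 by edgeR). Without PBS replicate 4 it was -1.86 (adjusted p = 0.000312 by edgeR). The chains of the IL-6 receptor, Il6ra and Il6st, thus moved in opposite directions.

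Lifr (ENSMUSG00000054263, chr15:7120095-7226970, plus strand), the private chain for leukemia inhibitory factor, was low in both groups. Its level was 1.88, 2.04, 1.97 and 3.48 normalized CPM in PBS and 1.74, 1.49, 1.72 and 0.601 in TNF. The groups did not overlap, though PBS replicate 1 and TNF replicate 1 nearly touched. The log2 fold change of -0.71 (SE 0.32) did not pass the test (edgeR adjusted p = 0.0956), and it was -0.46 without PBS replicate 4 and -0.51 without TNF replicate 4.

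Il11ra1 (ENSMUSG00000073889, chr4:41699989-41769485), the private chain for IL-11, was not called. It was 8.60, 9.74, 9.65 and 8.33 normalized CPM in PBS and 9.79, 10.3, 9.30 and 10.4 in TNF. The groups overlapped, and the log2 fold change of 0.13 (SE 0.12) did not pass the test (edgeR adjusted p = 0.383). With library size as the only scaling, which moved the median log2 fold change of all genes from 0.03 to -0.38, the value for Il11ra1 was -0.26. This gene overlaps Galt and Dctn3 among others, and no source used here says how shared reads were counted.

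**Figure D1:**
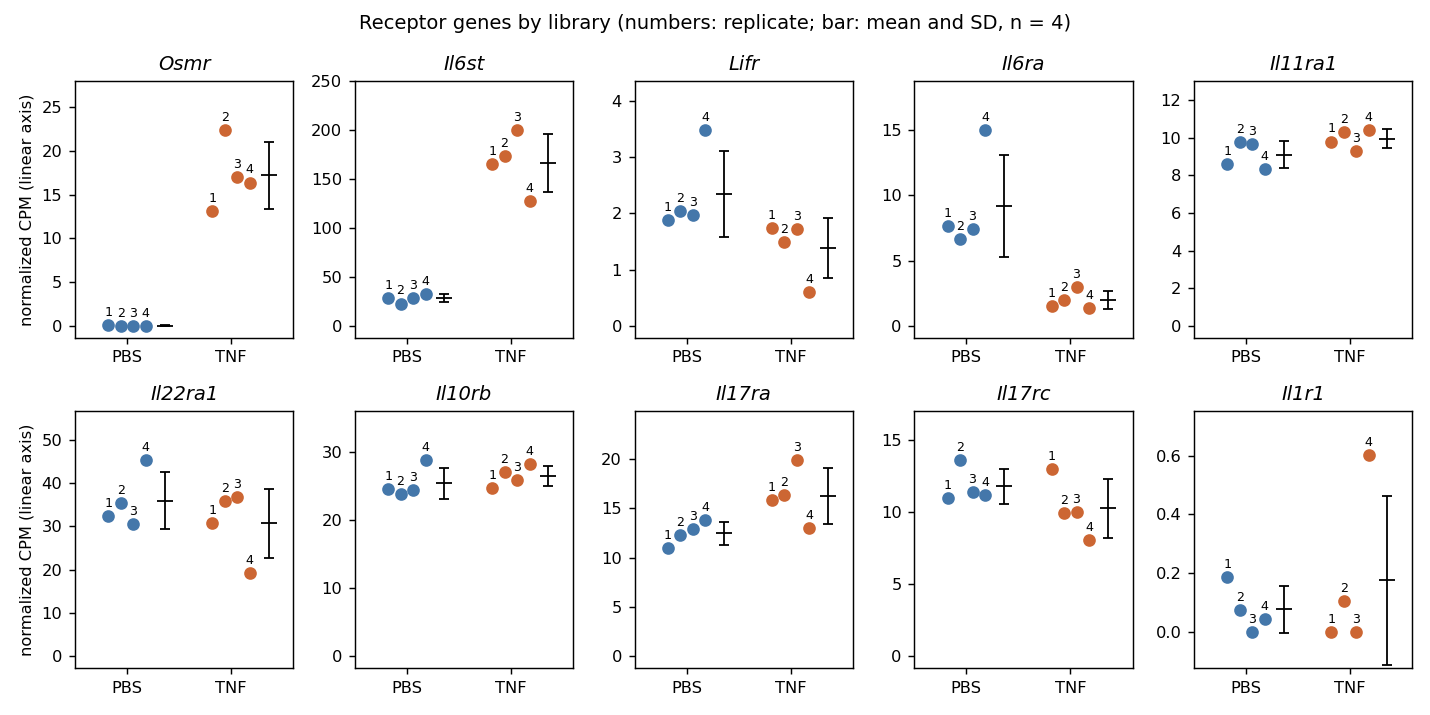
Normalized CPM (linear axis) of each of the 10 receptor genes in the 4 PBS (blue) and 4 TNF (orange) libraries, numbered by replicate, with the mean and SD (n = 4) at the right of each group. Osmr and Il6st sit higher in all 4 TNF libraries and Il6ra lower, while the groups overlap for Il11ra1, Il22ra1, Il10rb, Il17ra, Il17rc and Il1r1.

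The private chains that use gp130 were next compared with each other per length, as the share each took of the summed normalized CPM per kilobase of merged exons (RPKM scale) of Osmr, Lifr, Il6ra and Il11ra1. Osmr made up 0.401%, 0.136%, 0% and 0.119% of this sum in the PBS libraries and 39.5%, 51.3%, 44.6% and 45.5% in the TNF libraries. The share of Il6ra was 41.6% ± 9.48 in PBS and 7.34% ± 2.48 in TNF (SD, n = 4 each). Il11ra1 held 51.3% ± 10.3 in PBS and 44.1% ± 5.04 in TNF, and Lifr 6.89% ± 0.919 and 3.34% ± 1.4 (SD, n = 4 each). Most of this sum was thus Il11ra1 and Il6ra in PBS, and Osmr and Il11ra1 in TNF. As the shares sum to the whole and Osmr was chosen by its rise, the shares are a description with no test. With the longest transcript as the length, Osmr held 54.1% ± 4.89 in TNF and Il6ra 4.0% ± 1.41 (SD, n = 4 each).

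**Figure D2:**
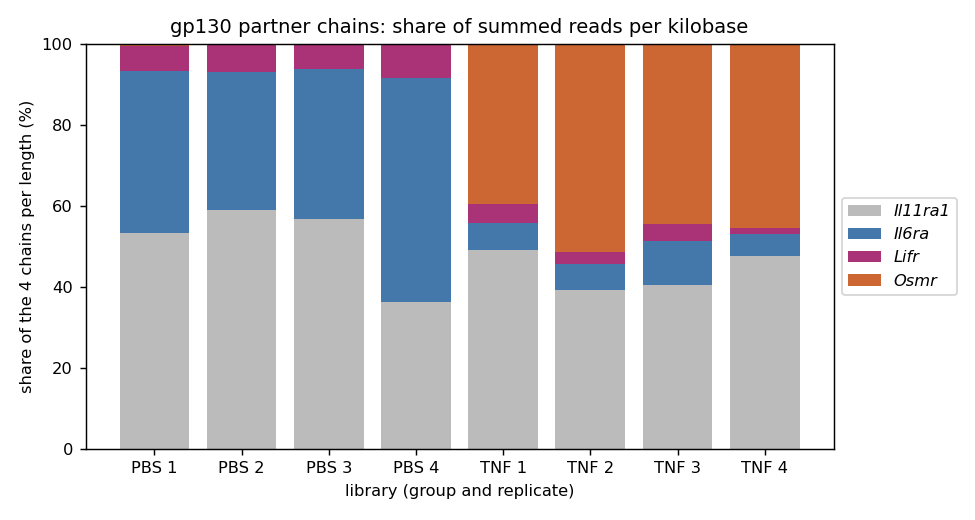
Share (percent) of the summed level per kilobase of Osmr, Lifr, Il6ra and Il11ra1 that each gene took in each of the 8 libraries, as stacked bars from 0. Osmr is not visible in the 4 PBS bars and takes 39.5% to 51.3% of the 4 TNF bars, while Il6ra narrows from a mean of 41.6% to 7.34%.

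The balance between chains of 1 receptor was measured within each library, as the log2 ratio of their counts, which does not depend on library scaling. The ratios are not corrected for length, so their change between the groups is what can be read from them. There were 31.0 Il6ra reads per 100 Il6st reads in PBS (geometric mean) and 1.17 in TNF, a 26.5-fold lower ratio (log2 difference -4.73). There were 32.3 Il11ra1 reads per 100 of Il6st in PBS and 6.06 in TNF (log2 difference -2.41), and 8.12 and 0.798 Lifr reads (log2 difference -3.35). In all 3 pairs every TNF library was below every PBS library. Each had p = 0.0286 in a two-sided exact permutation test over 70 assignments, the smallest p that 4 against 4 libraries allow, and an adjusted p of 0.0476 over the 5 pairs tested. These 3 ratios share Il6st and are not independent of each other or of its rise (log2 fold change 2.55). As Il11ra1 and Lifr were not called themselves, their ratios are no separate result about these chains. Osmr, which was not tested, stood at 0.186 reads per 100 of Il6st in PBS and 10.3 in TNF. There were 2.29 Osmr reads per 100 Lifr reads in PBS and 1290 in TNF.

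**Figure D3:**
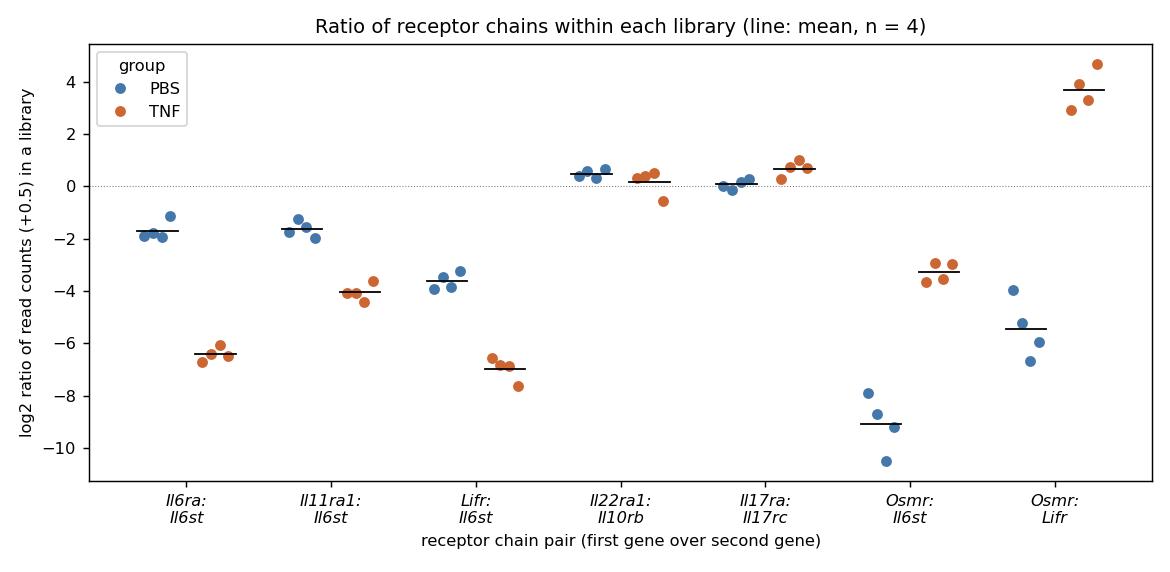
Log2 ratio of the counts of paired receptor chains in each of the 4 PBS (blue) and 4 TNF (orange) libraries, with 0 meaning equal counts. The 3 ratios of private chain to Il6st are lower in every TNF library (log2 differences -4.73, -2.41 and -3.35), and the groups overlap for Il22ra1:Il10rb and Il17ra:Il17rc. Osmr:Il6st and Osmr:Lifr are shown without a test.

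Both chains of the IL-22 receptor were well expressed and neither was called. Il22ra1 (ENSMUSG00000037157, chr4:135455428-135479451), which binds IL-22 and is confined among tissues mostly to epithelia, was at 32.5, 35.4, 30.5 and 45.3 normalized CPM in PBS and at 30.8, 35.9, 36.8 and 19.3 in TNF. The lowest value was that of TNF replicate 4, and the other 3 TNF libraries lay within the PBS range. The log2 fold change was -0.22 (SE 0.20, edgeR adjusted p = 0.40), and -0.04 without TNF replicate 4. Il10rb (ENSMUSG00000022969, chr16:91203012-91224600), the chain shared with the receptors for IL-10 and type III interferon, was at 24.6, 23.9, 24.4 and 28.8 normalized CPM in PBS and 24.7, 27.0, 25.9 and 28.3 in TNF. These ranges overlapped almost wholly, with a log2 fold change of 0.06 (standard error 0.11, adjusted p = 0.692 by edgeR), and -0.36 with library size as the only scaling. Within libraries there were 140 Il22ra1 reads per 100 of Il10rb in PBS and 113 in TNF. That difference of -0.31 on the log2 scale was within the spread of the libraries (exact permutation p = 0.257, adjusted p = 0.257), and it was -0.07 without TNF replicate 4.

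Neither chain of the IL-17 receptor passed the test. Il17ra (ENSMUSG00000002897, chr6:120440104-120464520), the chain shared by several IL-17 cytokines, was at 11, 12.3, 12.9 and 13.8 normalized CPM in PBS and 15.9, 16.4, 19.9 and 13.0 in TNF. TNF replicates 1 to 3 lay above every PBS library and TNF replicate 4 within them. The log2 fold change of 0.39 (SE 0.14) missed the threshold (edgeR adjusted p = 0.0504), and leaving out TNF replicate 4 gave 0.49, which passed it (adjusted p = 0.00586). Il17rc (ENSMUSG00000030281, chr6:113448388-113460103), which pairs with it for IL-17A and IL-17F, was at 11, 13.6, 11.4 and 11.2 normalized CPM in PBS and 13.0, 9.93, 10 and 8.07 in TNF. The groups overlapped, with a log2 fold change of -0.20 (standard error 0.15, adjusted p = 0.319 by edgeR). Leaving out TNF replicate 4 gave -0.09, leaving out TNF replicate 1 gave -0.36 and leaving out PBS replicate 2 gave -0.13, none of them called. The ratio of the pair was 106 Il17ra reads per 100 of Il17rc in PBS and 159 in TNF, a log2 difference of 0.59 (exact permutation p = 0.0571, adjusted p = 0.0714). Without TNF replicate 1 this difference was 0.72 and passed the threshold (exact permutation, adjusted p = 0.0357).

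Il1r1 (ENSMUSG00000026072, chr1:40264174-40356417), the signalling receptor for IL-1, was at the edge of detection and was not tested. It had 7, 2, 0 and 2 counts in the PBS libraries and 0, 3, 0 and 7 in the TNF libraries. The 11 counts in PBS gave 0.0822 normalized CPM (95% exact Poisson interval 0.041 to 0.147) and the 10 counts in TNF 0.103 (0.0493 to 0.189). Of the 10 counts in TNF, 7 were in TNF replicate 4, and the mean of the other 3 TNF libraries was 0.0346 normalized CPM. A difference between the groups was not detectable at this depth. Its partner Il1rap was measured at 5.90 normalized CPM in PBS and 10.6 in TNF, and rose (log2 fold change 0.85, SE 0.18, edgeR adjusted p = 0.00339). With library size as the only scaling it was 0.52 and not called (edgeR adjusted p = 0.335).

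Per kilobase of merged exons, Il22ra1 had the highest mean level in both groups, but with the longest transcript as the length Il6st was first in TNF. The order in PBS, in normalized CPM per kilobase (mean ± SD, n = 4), was Il22ra1 (13.7 ± 2.5), Il10rb (4.14 ± 0.366), Il17rc (2.61 ± 0.268), Il6st (1.82 ± 0.264), Il17ra (1.43 ± 0.134), Il11ra1 (1.21 ± 0.0964), Il6ra (1.04 ± 0.443) and Lifr (0.17 ± 0.0553), with Il1r1 (0.0113) and Osmr (0.00382) last. The ranges of the libraries overlapped between Il6st and Il17ra, Il17ra and Il11ra1, Il11ra1 and Il6ra, and Il1r1 and Osmr. In TNF, Il6st (10.7 ± 1.91) stood beside Il22ra1 (11.7 ± 3.06) with overlapping ranges, followed by Il10rb (4.32 ± 0.253), Il17rc (2.26 ± 0.445) and Il17ra (1.86 ± 0.324). Osmr came next at 1.39 ± 0.312, beside Il11ra1 at 1.33 ± 0.0679, and Il6ra (0.224 ± 0.0811), Lifr (0.101 ± 0.0389) and Il1r1 (0.0259) were last. The ranges of Il17rc, Il17ra, Osmr and Il11ra1 overlapped from neighbour to neighbour, as did those of Lifr and Il1r1. Against all genes tested, Osmr went from the 0.0976th percentile of level in PBS to the 46.6th in TNF, whereas Il6ra was at the 12.3rd in TNF and Il6st at the 88.9th. Osmr passed the filter only through its TNF counts and was chosen by its rise. As genes low in both groups were left out, its place in PBS is a description only. With the longest transcript as the length, 6 of the 10 genes kept their rank in PBS and 4 of 10 in TNF, where Il6st (18.7) passed Il22ra1 (11.7), and Osmr (3.13) passed Il17rc (2.55) and Il17ra (2.08).

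Osmr and Lifr are neighbours on mouse chromosome 15. They lie on opposite strands, 215644 bases apart on GRCm39, with 5 annotated genes and no protein-coding gene between them. While Osmr was higher in all TNF libraries, Lifr was lower in all of them without passing the test. On the other side of Osmr, Rictor, a subunit of the mTORC2 kinase complex, stood at a log2 fold change of -0.23 (standard error 0.17, adjusted p = 0.310 by edgeR, not called). Fyb1, an adaptor protein gene beyond it, stood at -0.40 (SE 0.48, edgeR adjusted p = 0.524).

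Of 19 other receptor chains of these families, 7 passed the filter, of which 3 rose and 1 fell (57.1% called against 43.0% of all genes, median log2 fold change 0.03, as for all genes), and with library size as the only scaling 1 rose and 1 fell. Il20rb passed the filter only through its TNF counts, so that nothing is read from this share or median. With no filter beyond 1 count 13 were tested and again 3 were called higher and 1 lower. Ifnlr1, which pairs with Il10rb for type III interferon, rose from 2.52 to 7.53 normalized CPM (log2 fold change 1.57, SE 0.22, edgeR adjusted p = 0.000207). Il20rb, a chain of receptors for IL-20 family cytokines, had 9, 8, 7 and 24 counts in PBS and rose from 0.339 to 1.12 normalized CPM (log2 fold change 1.70, SE 0.36, edgeR adjusted p = 0.00326). Its call was lost with library size as the only scaling (adjusted p = 0.0658 by edgeR). Il1rap rose as given above. Il17rd fell from 3.57 to 1.18 (log2 fold change -1.63, SE 0.21, edgeR adjusted p = 0.000141). The groups did not overlap for these 4 genes. Without TNF replicate 4 the counts were again 3 and 1, with a median of -0.27, and 3 ligands were again called. Il11ra2, Il10ra, Il20ra, Il1r2, Il1rl1 and Il1rl2 had 0 counts in every library.

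Few ligands of these receptors were transcribed in the sorted cells. Of 25 ligand genes, 5 passed the filter and 3 of them rose (60.0% called against 43.0% of all genes, median log2 fold change 1.70). Il1rn and Il33 passed only through their TNF counts, so that nothing is read from this share or median. With no filter beyond 1 count, 16 ligands were tested, 4 were called higher and 1 lower, and the median was -0.25. Il6, Osm, Cntf, Il10, Il22, Il24, Il17a, Il17b and Il17f had 0 counts in every library, which allows up to 3 counts of each in a library by counting error. Neither Osm, a ligand of Osmr, nor Il6, the ligand of Il6ra, was thus detected. Lif, a ligand of Lifr, rose from 0.987 to 3.17 normalized CPM (log2 fold change 1.70, SE 0.24, edgeR adjusted p = 0.000256). Il1rn, the antagonist that competes with IL-1 for Il1r1, rose from 0.123 to 3.72 (log2 fold change 4.90, SE 0.50, edgeR adjusted p = 2.37e-05). Il33, an alarmin of the IL-1 family, rose from 0.0439 to 0.826 (log2 fold change 4.08, SE 0.45, edgeR adjusted p = 4.15e-05), with 1 or 2 counts in each PBS library. Ctf1 and Il17d were tested and not called (log2 fold changes -0.44 and -0.40, edgeR adjusted p = 0.0633 and 0.205). The level of Ctf1 was 2.76 normalized CPM in PBS, above that of Lif, and 2.03 in TNF, and its groups did not overlap.

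Most of the signalling genes after gp130 and the IL-22 receptor were called higher. Of 15 kinases, STAT factors and inhibitors, all tested, 11 rose and 2 fell (86.7% called against 43.0% of all genes, median log2 fold change 0.82), and with library size as the only scaling 6 and 1. Socs1 had 3, 1, 3 and 13 counts in PBS and passed the filter only through its TNF counts. The share is therefore not read as support. With no filter beyond 1 count, again 11 were called higher and 2 lower, with a median of 0.775. Socs3, the inhibitor that docks on gp130, was at 4.72, 10.1, 6.86 and 9.95 normalized CPM in PBS and at 328, 433, 455 and 322 in TNF. No TNF library came near a PBS library, and the log2 fold change was 5.60 (SE 0.29, edgeR adjusted p = 3.19e-07). Stat3, the main transcription factor after gp130, was at 64.5, 46.0, 59.1 and 71.3 normalized CPM in PBS and at 239, 255, 290 and 191 in TNF. Its groups were also apart, with a log2 fold change of 2.02 (standard error 0.18, adjusted p = 9.19e-06 by edgeR). Cish, another inhibitor of the SOCS family, rose from 2.84 to 30.2 (log2 fold change 3.42, SE 0.20, edgeR adjusted p = 5.54e-07), and the phosphatase gene Ptpn2 from 12.1 to 40.0 (log2 fold change 1.72, SE 0.13, edgeR adjusted p = 4.16e-06). The 2 that fell were the kinase Tyk2 (log2 fold change -0.42, edgeR adjusted p = 0.0102, and 0.0537 with library size as the only scaling) and the STAT3 inhibitor Pias3 (log2 fold change -0.58, edgeR adjusted p = 0.0141). Without TNF replicate 4, 11 were called higher and 3 lower. These genes were counted as RNA, and phosphorylation of their products was not measured.

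After the IL-17 and IL-1 receptors, 13 of 21 adaptors, kinases and regulators rose and 2 fell, with all 21 tested (71.4% called against 43.0% of all genes, median log2 fold change 0.65), and with library size as the only scaling 5 rose and 1 fell. The transcription factor Cebpd rose from 3.01 to 41.0 normalized CPM (log2 fold change 3.77, SE 0.15, edgeR adjusted p = 9.95e-08). The RNA-binding protein gene Arid5a, whose product stabilizes cytokine transcripts, rose from 5.83 to 83.9 (log2 fold change 3.85, SE 0.20, edgeR adjusted p = 3.19e-07). The adaptor Myd88 rose from 12.0 to 54.3 (log2 fold change 2.18, SE 0.11, edgeR adjusted p = 3.26e-07), and Cebpb from 2.22 to 10 (log2 fold change 2.18, SE 0.22, edgeR adjusted p = 2.01e-05). Tab1, a partner of the kinase TAK1, fell (log2 fold change -0.66, edgeR adjusted p = 0.00134). Traf3ip2, the adaptor bound by the IL-17 receptor, was 0.33 lower on the log2 scale and its call (edgeR adjusted p = 0.0375) was lost when any single library but TNF replicate 2 was left out. Without TNF replicate 4, 14 of the 21 were called higher and 1 lower.

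Of 22 genes known as epithelial targets of these cytokines, 17 were tested and 16 rose (94.1% called against 43.0% of all genes, median log2 fold change 3.35). Some of them, such as Cxcl1, Lcn2 and Lrg1, were at or near 0 in PBS and passed the filter only through their TNF counts, so that the share and median are not read as support. With no filter beyond 1 count all 22 were tested, 18 were called and the median was 2.85. Duoxa2, the maturation factor of the oxidase DUOX2, rose from 1.06 to 133 normalized CPM (log2 fold change 6.98, SE 0.33, edgeR adjusted p = 2.19e-07), and the metalloreductase gene Steap4 from 0.267 to 57.8 (log2 fold change 7.70, SE 0.39, edgeR adjusted p = 3.19e-07). Junb, a subunit of AP-1, rose from 26.8 to 274 (log2 fold change 3.35, SE 0.17, edgeR adjusted p = 3.26e-07), and Bcl3, an atypical IkB protein gene, from 13.0 to 174 (log2 fold change 3.74, SE 0.22, edgeR adjusted p = 6.42e-07). Cxcl1 had 0 counts in every PBS library and was at least 27.3-fold higher in TNF against 3 counts per library. Pigr, the receptor that carries IgA across the epithelium, was the one tested gene not called (log2 fold change 0.23, edgeR adjusted p = 0.331). Without TNF replicate 4, 18 were tested and 17 called, all higher. Several of these genes are also known as targets of TNF itself.

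**Figure D4:**
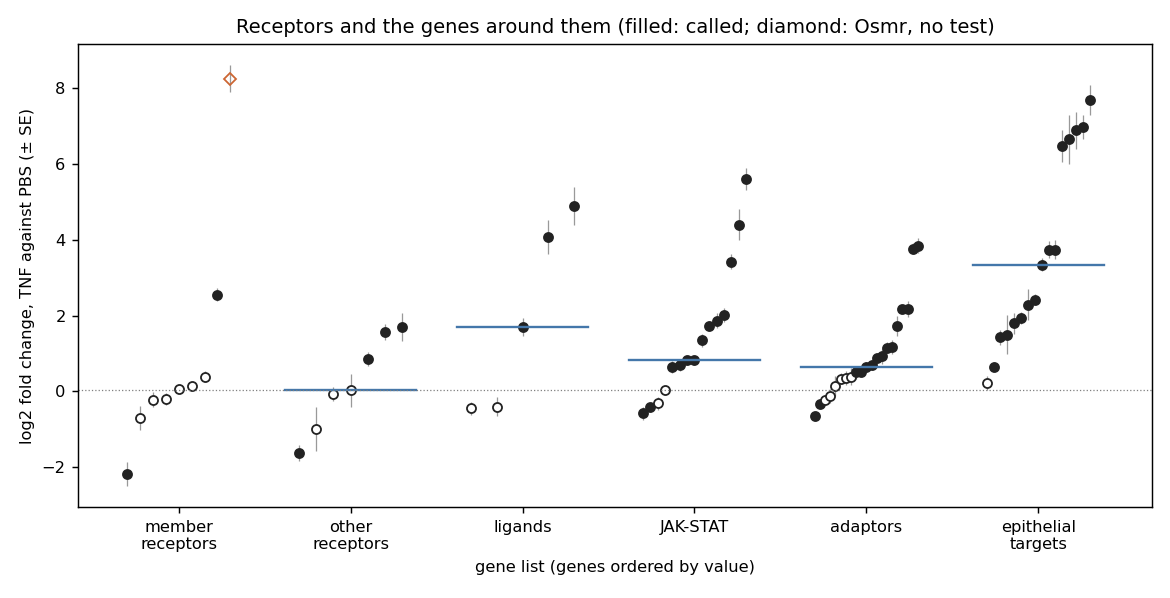
Log2 fold change (TNF against PBS, ± SE) of the tested genes in each list, ordered by value, with filled points for genes called at an adjusted p under 0.05 by edgeR, blue lines for list medians and an open diamond for Osmr, which has no test. Cxcl1, at 0 in PBS, is left out of the points. The receptors lie around 0 with Il6st above and Il6ra below, and the lines lie at 0.03 for the other receptors, 0.82 for the JAK-STAT genes and 0.65 for the adaptors.

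The genes whose level followed that of Osmr over the libraries were ranked by Pearson's r of log2 CPM over the 8 libraries, among 8342 genes with a mean of at least 5 normalized CPM in TNF. The 5 highest were Duoxa1 (r = 0.998), 4930523C07Rik (r = 0.997), Tlr2 (r = 0.997), Xdh (r = 0.997) and Tmem252 (r = 0.996). Duoxa1, the maturation factor of DUOX1, went from 0.443 to 48.2 normalized CPM, Tlr2, a receptor for bacterial lipoproteins, from 1.35 to 56.3, and Xdh, which encodes xanthine dehydrogenase, from 12.3 to 66.1. The values of 4930523C07Rik were 2.97 and 24.2, and those of Tmem252 1.2 and 23.0. The 8 libraries form a PBS and a TNF cluster, and 798 of the 8342 genes (9.57%) had an r above 0.95, so the ranking mainly lists genes with a clean rise.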

How the data were processed

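RNA of sorted Paneth cells was sequenced for 4 PBS and 4 TNF libraries (Aurum Total RNA Mini kit, TruSeq Stranded mRNA kit). The authors deposited raw counts per Ensembl gene ID for each library, with no normalization. The submitters' processing notes name FastQC 0.12, STAR 2.7.10a, DESeq2 and the mm39 build. For the counter, its annotation, shared reads and strand, the tool or setting was not given in the sources used. Such steps could change counts of overlapping genes.

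Symbols, positions and exon lengths came from GENCODE M39 (GRCm39), which matched 54749 of 55414 IDs and left 665 unmatched. Counts were tested with edgeR 4.0.16 in R 4.3.3 (TMM scaling, filterByExpr, quasi-likelihood test, Benjamini-Hochberg over 13368 genes, adjusted p under 0.05), after a check on simulated data. SEs were derived from the F statistic. Ratios within libraries used a pseudocount of 0.5 and a two-sided exact permutation test, and pairs with a gene at 3 or fewer counts in any library were not tested. Likeness to Osmr was taken on log2 CPM (prior count 2). Each library is 1 replicate, and no pair of libraries was a duplicate. Alternatives were other scalings (DESeq2-type size factors, library size alone, TMM without Defa genes), other filters, DESeq2 1.42.0, limma-voom 3.58.1, a threshold of 0.01, the replicate number as a block, a pseudocount of 1, the longest transcript as length, and leaving out each library. Promoters came from RefSeq (GRCm38.p6), and their coordinates were kept apart from those on GRCm39. Protein sequences were not analysed here.

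The receptors, pathway lists and marker lists (Paneth, goblet, enterocyte, stem, enteroendocrine, tuft, immune, stroma, endothelium) were chosen with earlier results of these data known. Named genes are the 10 receptors, the 4 genes of each list with the smallest p, every called receptor and ligand, the 5 genes most like Osmr, and markers called between the groups. Rictor, Fyb1, Tyk2, Pias3, Tab1, Traf3ip2, Cxcl1, Pigr, Lcn2, Lrg1, Il17c, Il17d, Il1a and Jak1, and ligands or receptors at 0, were named after their values were seen. The same holds for Socs1, Lyz2, Ptprc, Itgam and Cd68.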

Additional observations from a re-analysis of the deposited data

Results flagged for a closer look

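The levels of the 10 receptors and 7 of their pair ratios were searched for a library far from the other 3 of its group, in 34 groups of 4, by the gap to the nearest library over the range (Dixon's test at the 95% level), which chance passes in about 1 of 20 groups. In 3 receptors PBS replicate 4 was the high library. Its Lifr level was 3.48 normalized CPM, against 1.88 to 2.04 in the other PBS libraries, and its Il6ra level was 15.0, against 6.69 to 7.64. Il10rb stood at 28.8 there, against 23.9 to 24.6. Without this library the log2 fold change of Il6ra was -1.86 (edgeR adjusted p = 0.000312), that of Lifr -0.46 (edgeR adjusted p = 0.269) and that of Il10rb 0.09 (edgeR adjusted p = 0.549). The Il17rc level of PBS replicate 2 was 13.6, against 11 to 11.4 in the other PBS libraries.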

How the results depend on the processing

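Il6st and Il6ra were called with the same sign under each alternative run, with log2 fold changes of 2.20 to 2.67 and of -2.58 to -1.86, and Lifr was called under none (-1.04 to -0.46). Il17ra was called with TMM without Defa genes (0.39, adjusted p = 0.0495), limma-voom (0.39, adjusted p = 0.0408) and without TNF replicate 4 (0.49), so that 3 receptors were called there in place of 2, 66.7% of them higher in place of 50%. With library size as the only scaling, Il11ra1 (-0.26) and Il10rb (-0.36) changed sign, and the calls came to 2 of the other receptors (1 higher, 1 lower) in place of 4, 7 of the JAK-STAT genes (6 higher) in place of 13 and 6 of the adaptors (5 higher) in place of 15. Il20rb (1.33, adjusted p = 0.0658), Il1rap (0.52, adjusted p = 0.335), Jak1 (0.41), Tyk2 (-0.84) and Traf3ip2 (-0.71) lost their calls there, and the cause was not tested. Without a filter beyond 1 count, 5 ligands were called (4 higher, 1 lower) in place of 3. With the longest transcript as length, 6 and 4 of 10 receptors kept their rank in PBS and TNF. The Il17ra:Il17rc difference ranged from 0.48 to 0.72 when 1 library was left out. Deviations of PBS and TNF libraries with the same replicate number correlated at 0.02, 0.07, -0.14 and -0.13, and 2 of 4 TNF libraries correlated best with their own number. With so few libraries these values do not show a pairing by number and cannot exclude one. With the replicate number as a block 2 receptors were called (Il6st 2.55, Il6ra -2.11), and the ratios to Il6st (-4.73, -2.41 and -3.35) had adjusted p = 0.156 in an exact sign-flip test, for which each raw p was the smallest possible. Counts limit Il1r1, and Osmr in PBS.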

Other observations

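Some ligand genes under the filter on low counts were present in 1 group only. They were chosen after their values were seen and have no test in the fit with the filter. Il17c, an epithelial member of the IL-17 family that signals through Il17ra and Il17re, had 0 counts in all 4 PBS libraries and 4, 9, 4 and 2 counts in the TNF libraries. Il1a, which binds Il1r1, had 11, 2, 6 and 4 counts in the PBS libraries and 0 in all 4 TNF libraries.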
